A study of Mus musculus with 9 samples.

Results

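Regulators and markers of the last steps of B cell differentiation, 10 genes in all, were followed in mouse pre-B cells: Prdm1, Xbp1, Ell2 and Sdc1 of the plasma cell programme, Bach2, Bcl6 and Bcl11a, which oppose it or hold B cell identity, the signalling-responsive factor Mef2c, and the octamer factors Pou2f2 and Pou2af1. Every probe set whose only annotated gene symbol was 1 of these was used, which gave 32 of the 45101 probe sets on the array. Of the 32, 28 had a mean intensity over the 9 arrays of at least 108, a limit set at the 40th percentile over the whole array, and entered the tests. The 4 below it belonged to Xbp1, Bcl6, Bcl11a and Ell2, and each of the 10 genes had at least 1 tested probe set.

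A pre-B cell has rearranged its heavy-chain gene and waits to rearrange a light-chain gene, while interleukin 7 (IL-7) drives its division through the STAT5 transcription factors. Much later, after antigen contact, a B cell either enters a germinal centre, where BCL6 and BACH2 repress the plasma cell genes, or becomes an antibody-secreting plasma cell, where BLIMP-1 (from Prdm1) shuts off B cell genes and XBP1 expands the secretory pathway. IRF4 takes part at both ends: it promotes light-chain rearrangement in pre-B cells and, at a high level, plasma cell differentiation.

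All arrays were of cultured pre-B cells with the genotype IRF4,8 -/-, so every group, controls included, lacked the IRF4 and IRF8 alleles. Cells of 3 arrays grew in high IL-7, labelled 5 ng per volume, those of 3 others in low IL-7, labelled 0.25 ng per volume, and those of the last 3 in high IL-7 after the return of IRF4. The labels disagree on the volume, so no concentration is given. How IRF4 was delivered and the age, sex and strain of the source animals are not in the labels, and no group carried the delivery without IRF4, so delivery and factor cannot be told apart. The labels do not say that a group's arrays are of separate cultures, and p-values then measure the spread between these arrays, which may be technical. In bulk RNA, fewer cells with a transcript and less transcript per cell cannot be told apart.

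On the check of the labels, Irf4 probe set 1421174_at read 202 to 381 in high IL-7, 257 to 316 in low IL-7 and 1088 to 2543 with IRF4, a rise of 2.45 ± 0.28 (SE, n = 3 against 3) on the log2 scale (limma adjusted p = 0.000861). Probe set 1421173_at read 4719 to 5791, 7161 to 7926 and 3702 to 4256, a low IL-7 rise of 0.57 (adjusted p = 0.000502) and a change of -0.40 with IRF4 (adjusted p = 0.0438). Both Irf8 probe sets read 1966 to 4426, and 1448452_at rose in low IL-7 (0.43, adjusted p = 0.0433). Which part of each transcript these probe sets cover, and which part the null alleles lack, was not known here, so the null genotype was not checked by them. Array medians lay at 140 to 151 intensity units. The 18S control probe sets were low on high IL-7 array 1 and IRF4 array 3 (6.54 and 6.42 on the log2 scale, against 7.70 to 8.50 on the others). Of the 11 pre-B cell markers measured, all 11 were above the filter, with summed intensities of 57197 to 64858 in high IL-7, 89792 to 93207 in low IL-7 and 59630 to 63311 with IRF4. Of the 7 plasma cell markers, 5 were above the filter, while Jchain and Tnfrsf17 stayed below it on every array. The 11 stromal markers summed to 5004 to 25294, 2389 to 6261 and 2876 to 17023. Summed markers of other cell types read 1103 to 1364 over all arrays for myeloid cells (5 of 10 above the filter) and 803 to 1016 for epithelial cells (2 of 6). The dendritic cell sum (4 of 7 above the filter) was 1535 to 2197 in high IL-7, 1143 to 1317 in low IL-7 and 1585 to 2085 with IRF4, and the T cell sum (3 of 6) was 923 to 984, 1086 to 1228 and 888 to 1041. Low IL-7 thus stood apart on both sums, lower on the first and higher on the second. Of the dendritic cell markers, Bst2 had the widest range over the arrays (236 to 1257). Whether the content of such cells differed, and its part in the changes given below, was not tested. The erythroid and megakaryocyte sum (3 of 5 above the filter) was 15088 to 15658 in high IL-7, 9120 to 10295 in low IL-7 and 10035 to 10764 with IRF4. Most of it was from Car2. The plasma cell sum, which holds Prdm1, Xbp1 and Sdc1, was 15974 to 16504 in high IL-7, 15273 to 15345 in low IL-7 and 13460 to 14724 with IRF4. Its brightest member was Mzb1 (mean 7995). No marker of any list was at exactly 0.

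The start regions of Prdm1, Bcl6 and Bach2 are shown because these genes had the largest rises in low IL-7 and because IL-7 acts through STAT factors, which bind TTCNNNGAA, and through phosphatidylinositol 3-kinase, which restrains FOXO factors, which bind TGTTTAC. The 250 bases before each annotated start are given 5′ to 3′ from RefSeq (build GRCm38.p6), with matches in capitals. The windows are Prdm1 on the minus strand at chr10:44458749-44458998, within the annotated gene, Bcl6 on the minus strand with start 1 at chr16:23988853-23989102, outside the annotated gene, and start 2 at chr16:23981284-23981533, inside it, and Bach2 on the plus strand at chr4:32417185-32417434, inside the gene.
Prdm1: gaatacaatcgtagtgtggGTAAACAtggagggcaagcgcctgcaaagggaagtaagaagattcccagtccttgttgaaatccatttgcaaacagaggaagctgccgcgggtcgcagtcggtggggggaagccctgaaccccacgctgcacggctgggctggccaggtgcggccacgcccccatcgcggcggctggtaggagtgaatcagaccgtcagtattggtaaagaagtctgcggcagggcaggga
Bcl6 start 1: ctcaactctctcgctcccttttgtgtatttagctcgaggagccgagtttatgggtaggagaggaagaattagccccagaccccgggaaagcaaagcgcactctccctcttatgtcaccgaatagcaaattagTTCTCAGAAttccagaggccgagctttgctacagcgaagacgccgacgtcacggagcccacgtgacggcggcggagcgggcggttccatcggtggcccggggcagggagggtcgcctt
Bcl6 start 2: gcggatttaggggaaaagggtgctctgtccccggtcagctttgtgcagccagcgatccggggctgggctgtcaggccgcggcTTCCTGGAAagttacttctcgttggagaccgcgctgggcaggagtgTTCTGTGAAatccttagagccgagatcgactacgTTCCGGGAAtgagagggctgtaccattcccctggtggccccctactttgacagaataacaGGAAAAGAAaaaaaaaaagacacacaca
Bach2: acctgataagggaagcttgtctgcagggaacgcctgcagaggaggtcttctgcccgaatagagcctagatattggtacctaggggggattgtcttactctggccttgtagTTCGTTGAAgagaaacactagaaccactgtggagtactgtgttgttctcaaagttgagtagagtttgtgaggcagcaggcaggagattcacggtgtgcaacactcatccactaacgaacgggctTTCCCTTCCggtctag
For the search, 5 motifs were looked for on both strands of 300 bases around each start (250 before it, 50 from it on): besides the STAT and FOXO letters, an ISRE-like GAAANNGAA, an EICE-like GGAANNGAA, both recognised by IRF factors alone or with an ETS partner, and the octamer ATGCAAAT. The ISRE-like and EICE-like letters can overlap each other, and the STAT letters are their own reverse complement. In Prdm1 the capitals mark a FOXO match that begins 231 bases before the start, on the opposite strand. Bcl6 start 1 holds a STAT match at -118. Bcl6 start 2 holds STAT matches at -168, -122 and -88 and an EICE-like match at -28. Bach2 holds a STAT match at -140 and an EICE-like match at -16 on the opposite strand. The STAT letters were in 5 of the 13 start windows of the 10 genes, against 8.3% of 32851 windows of the same length. Besides the windows shown, they were in Bcl11a (-224), which fell in low IL-7, and Mef2c start 1 (-157), which rose. Of the 32851 windows, 11 (0.0335%) held 3 or more STAT matches, Bcl6 start 2 among them. The limit of 3 equals the number in that window, so this share is no test. EICE-like letters were in 5 of 13 windows (8.24% of all), FOXO in 1 of 13 (3.65%), ISRE-like in 0 of 13 (8.56%) and the octamer in 0 of 13 (1.74%). A match is a description of the letters and shows no binding.

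Intensities were compared as log2(intensity + 16) with limma over all 9 arrays and all tested probe sets, and a change was called where the p-value after Benjamini-Hochberg adjustment was under 0.05. All log2 changes below are on this scale, and they understate the change of dim probe sets. In low IL-7 against high IL-7, 10 of the 28 probe sets rose and 7 fell, against 18.1% and 18.3% of all 27024 tested probe sets. Taking the brightest tested probe set for each gene, Prdm1, Bach2, Bcl6, Mef2c and Pou2af1 rose and Xbp1 and Bcl11a fell, which is 5 and 2 of 10 genes, against 17.6% and 19.4% of 12828 genes. Prdm1, counted among the rises, passed the filter only through its low IL-7 arrays. With IRF4 in high IL-7 against high IL-7 alone, 12 of 28 probe sets rose and 0 fell by limma, against 1.58% and 1.18% of all. Of the 12, 5 were of Mef2c. At an unadjusted p under 0.05, 4 probe sets were lower, those of Prdm1 and Xbp1. By gene, Bach2, Bcl11a, Mef2c, Pou2af1 and Ell2 rose, 5 of 10, against 1.91% of all genes, and 0 of 10 fell, against 0.935%. The 10 genes and the lists below were chosen with earlier results of these data known. A share above that of all genes may come from that choice and is a description only.

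Both comparisons against high IL-7 share the same 3 control arrays, so no overlap between them is read. Cells given IRF4 were also compared with cells in low IL-7 directly. There 12 probe sets were higher with IRF4 and 5 lower, against 17.2% and 20.3% of all, and by gene 4 were higher (Xbp1, Bcl11a, Pou2f2 and Ell2) and 4 lower (Prdm1, Bach2, Bcl6 and Pou2af1), against 18.6% and 17.7%. The median log2 change of the 10 genes was 0.30 in low IL-7 and 0.34 with IRF4 against high IL-7, and -0.02 between those conditions. The medians over all genes were 0.0183, -0.00837 and 0.000762.

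**Figure D1:**
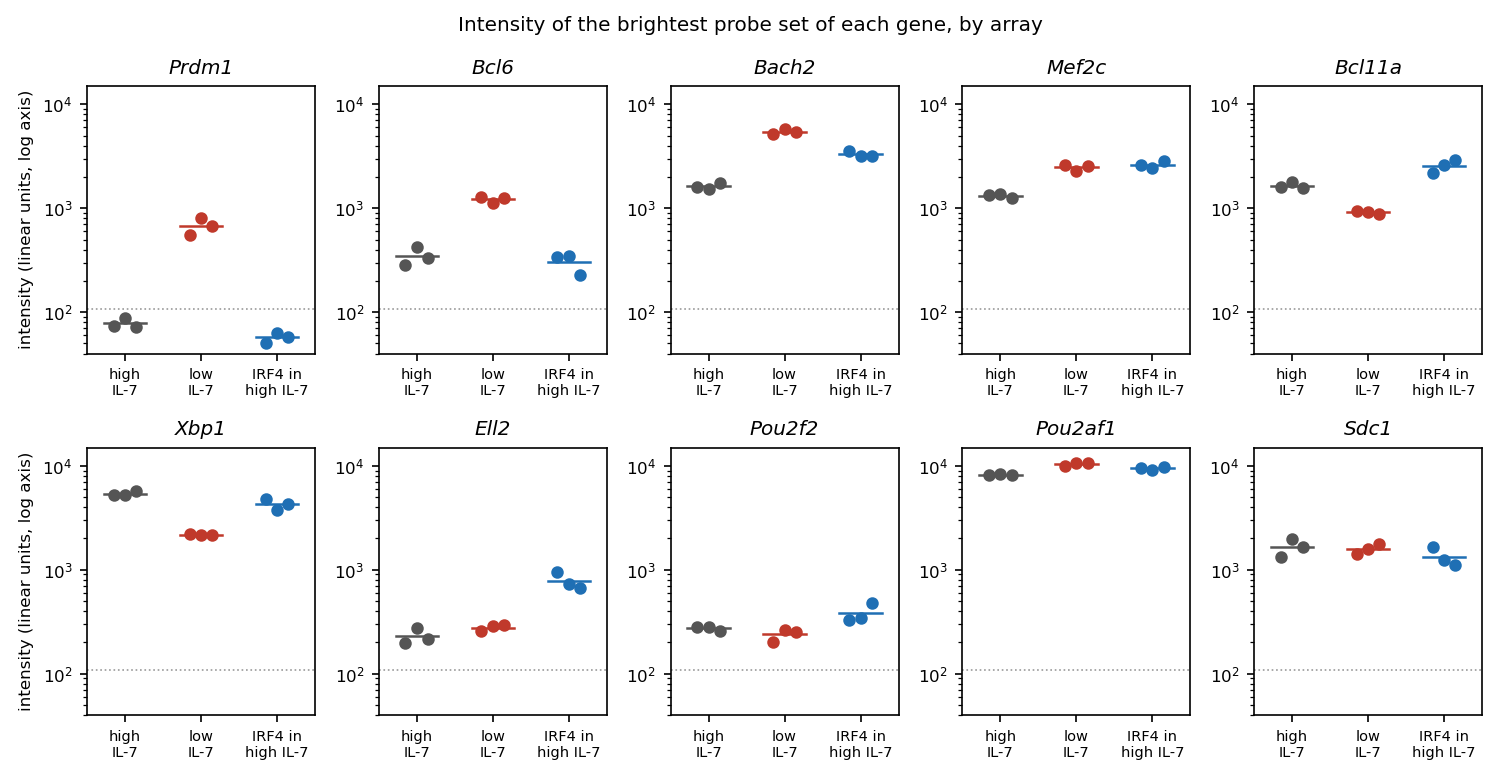
Intensity of the brightest tested probe set of each of the 10 genes on every array (log axis), with 3 points per group and a bar at the group mean; the dotted line is the filter at 108. Prdm1 and Bcl6 stand high on the 3 low IL-7 arrays, Ell2 on the 3 IRF4 arrays, and Sdc1 overlaps in all groups.

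**Figure D2:**
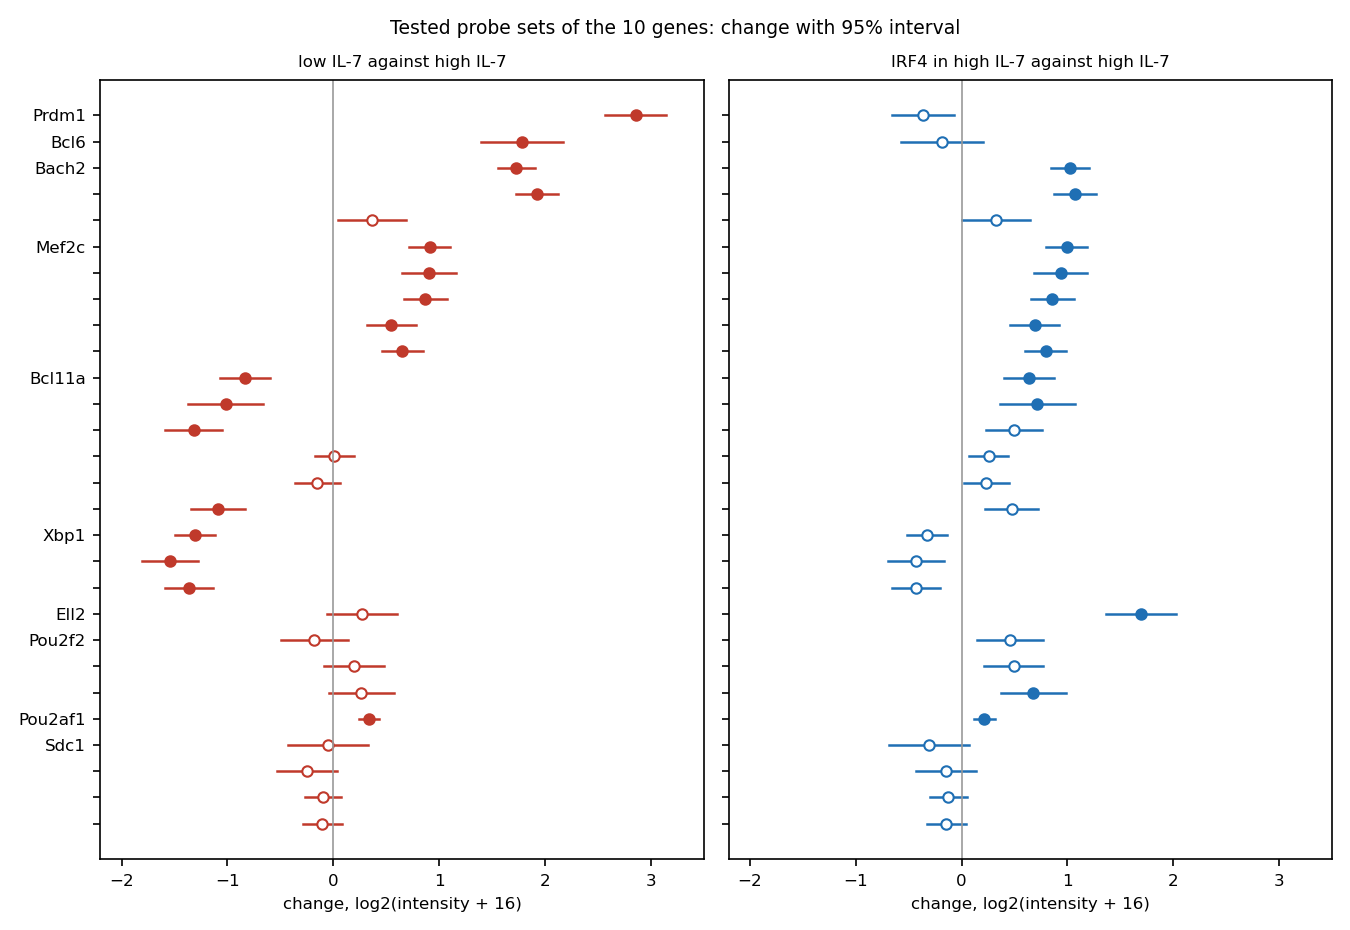
Log2 changes with 95% intervals for all 28 tested probe sets in low IL-7 (left) and with IRF4 (right), each against high IL-7, filled where the adjusted p was under 0.05 and open otherwise. The 5 Mef2c probe sets lie to the right of 0 in both panels, from 0.55 to 0.99.

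Prdm1, which encodes the plasma cell repressor BLIMP-1, rose in low IL-7. Its probe set read 73.4, 88.7 and 72.6 in high IL-7, 551, 797 and 669 in low IL-7 and 50.6, 63.2 and 58.0 with IRF4. The low IL-7 arrays stood far above all others, and the IRF4 arrays lay below the high IL-7 arrays with no overlap. On the log2 scale the means were 6.55 ± 0.14, 9.41 ± 0.26 and 6.19 ± 0.13 (SD, n = 3 each). Low IL-7 raised it by 2.86 ± 0.13 (SE), 7.25-fold (limma adjusted p = 4.97e-07). With IRF4 the difference from high IL-7 was -0.36 (95% interval -0.65 to -0.07, adjusted p = 0.211), and the level was 9.32-fold lower than in low IL-7 (adjusted p = 1.65e-07). Since the high IL-7 and IRF4 arrays lie below the filter, Prdm1 entered the tests through its low IL-7 arrays, and the size of its rise depends on the pseudocount: 3.08 with 1 added and 2.36 with 64 added.

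Xbp1, whose spliced product drives secretory expansion, fell in low IL-7. The brightest of its 3 tested probe sets, which is shared among transcripts by design, read 5185, 5205 and 5705 in high IL-7, 2195, 2148 and 2140 in low IL-7 and 4768, 3780 and 4294 with IRF4. The 3 groups did not overlap, with low IL-7 lowest and IRF4 between. Low IL-7 lowered it by 2.47-fold (log2 change -1.30 ± 0.08 SE, adjusted p = 2.08e-06), and the other tested probe sets fell too (-1.54 and -1.36). With IRF4 the differences from high IL-7 were -0.43 to -0.33 with adjusted p of 0.0552 to 0.0926, so none was called, and leaving out IRF4 array 1 brought all 3 under the threshold (0.00977 to 0.0232). Against low IL-7, the IRF4 cells had higher Xbp1 by 0.93 to 1.11 (adjusted p at most 6.34e-05). The arrays do not separate spliced from unspliced Xbp1. The probe set below the filter read 66 to 117.

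The genes of the XBP1 and unfolded protein response list, which encode endoplasmic reticulum chaperones, translocon subunits and stress sensors, included called changes in both directions in low IL-7. Of 17 tested, 9 fell and 3 rose, against 19.4% and 17.6% of all genes, with a median of -0.27, so the share that rose was near that of all genes. Sdf2l1, a chaperone cofactor, fell by 1.40 on the log2 scale, from 480 to 595 in high IL-7 to 183 to 209 in low IL-7. Atf4, a stress transcription factor, Creld2, Pdia6 (a disulfide isomerase) and Hspa5 (the chaperone BiP) fell by 1.13, 1.04, 0.91 and 0.72. Hsp90b1, Sec61a1, Pdia4 and Sec61b fell by 0.44, 0.43, 0.36 and 0.27. Herpud1, Dnajb9 and Edem1, which act in the degradation of misfolded proteins, rose by 0.75, 0.47 and 0.41. The Edem1 call was lost without high IL-7 array 3 (adjusted p = 0.0545), and the Pdia4 call without high IL-7 array 1 or low IL-7 array 1 (0.0535 and 0.0729). With IRF4, 0 of 17 rose and 0 fell by limma, with a median of -0.00399, and at an unadjusted p under 0.05 there were 0 higher and 1 lower. Of all genes only 1.91% rose and 0.935% fell with IRF4, so these counts are near the share of all genes. Between IRF4 and low IL-7, 8 of the 17 were higher with IRF4 and 3 lower, against 18.6% and 17.7% of all genes, with a median of 0.20.

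**Figure D3:**
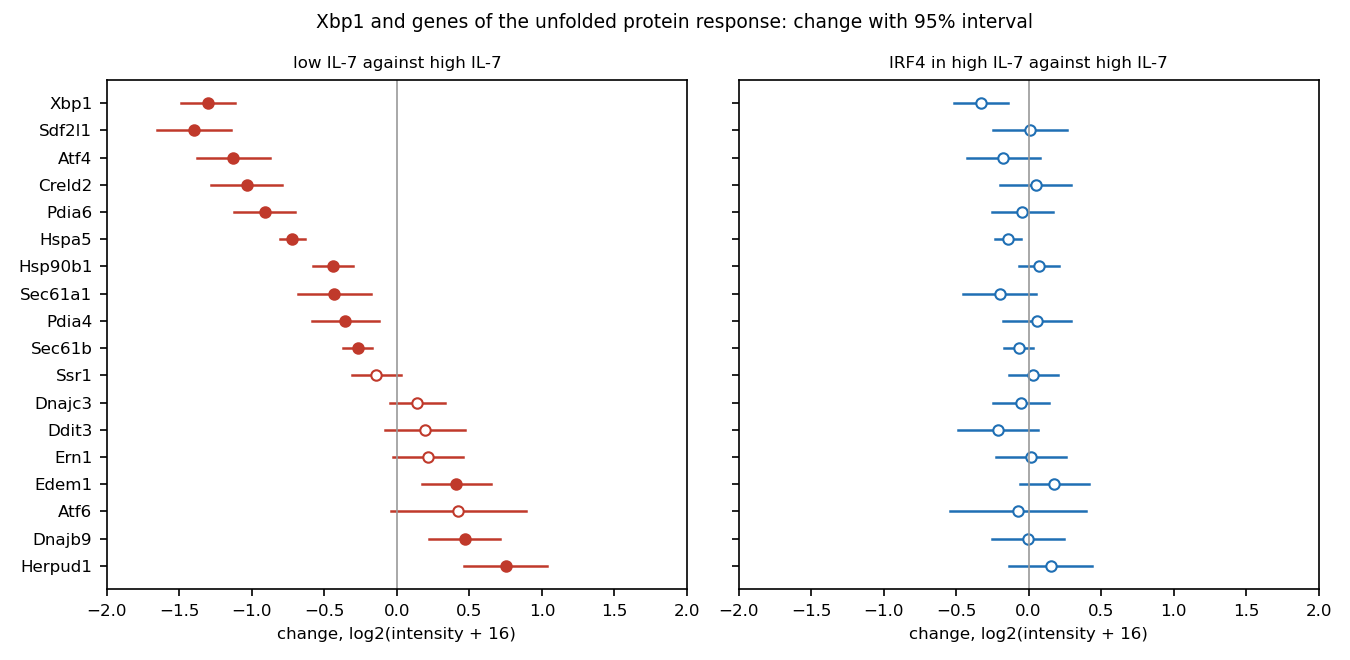
Log2 changes of the 17 tested XBP1 and unfolded protein response genes and of Xbp1 itself in low IL-7 and with IRF4, each against high IL-7, filled where called. Most low IL-7 points lie below 0, down to -1.40 for Sdf2l1. No IRF4 point of the list was called, where 1.91% of all genes rose and 0.935% fell.

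Ell2, an elongation factor that favours the secreted form of immunoglobulin heavy-chain RNA, rose with IRF4. Its tested probe set read 196, 276 and 215 in high IL-7, 256, 285 and 291 in low IL-7 and 947, 730 and 660 with IRF4. Every IRF4 array was higher than every other array, and the high and low IL-7 arrays overlapped. The log2 means were 7.92 ± 0.24, 8.19 ± 0.09 and 9.62 ± 0.26 (SD, n = 3 each). The rise with IRF4 was 1.69 ± 0.15 (SE), 3.24-fold (adjusted p = 0.000169), and against low IL-7 it was 2.68-fold (adjusted p = 4.81e-05). The low IL-7 difference of 0.27 (95% interval -0.06 to 0.60) was not called (adjusted p = 0.193). The Ell2 probe set below the filter read 44 to 66.

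Of 12 tested partners of ELL2 in transcription elongation, 1 rose with IRF4 and 0 fell by limma, against 1.91% and 0.935% of all genes, with 2 higher and 1 lower at an unadjusted p under 0.05. The 1 was Eaf2, an ELL-associated factor, which read 43.2 to 48.0 in high IL-7, 48.5 to 56.8 in low IL-7 and 220 to 320 with IRF4, a rise of 2.20 (4.59-fold, adjusted p = 5.36e-06). Eaf2 passed the filter through its IRF4 arrays, so its size depends on the pseudocount. Its relative Eaf1 differed by -0.10 (95% interval -0.32 to 0.12). In low IL-7, 3 of the 12 rose and 1 fell, against 17.6% and 19.4% of all genes: the scaffold genes Aff1 and Aff4 rose by 0.65 and 0.68 and the cyclin gene Ccnt2 by 0.50, and Mllt1 fell by 0.53. The Ccnt2 call was lost without any of 3 single arrays (adjusted p 0.0503 to 0.0658) and the Mllt1 call without any of 4 (up to 0.125). The median over the list was 0.16 in low IL-7 and 0.01 with IRF4.

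**Figure D4:**
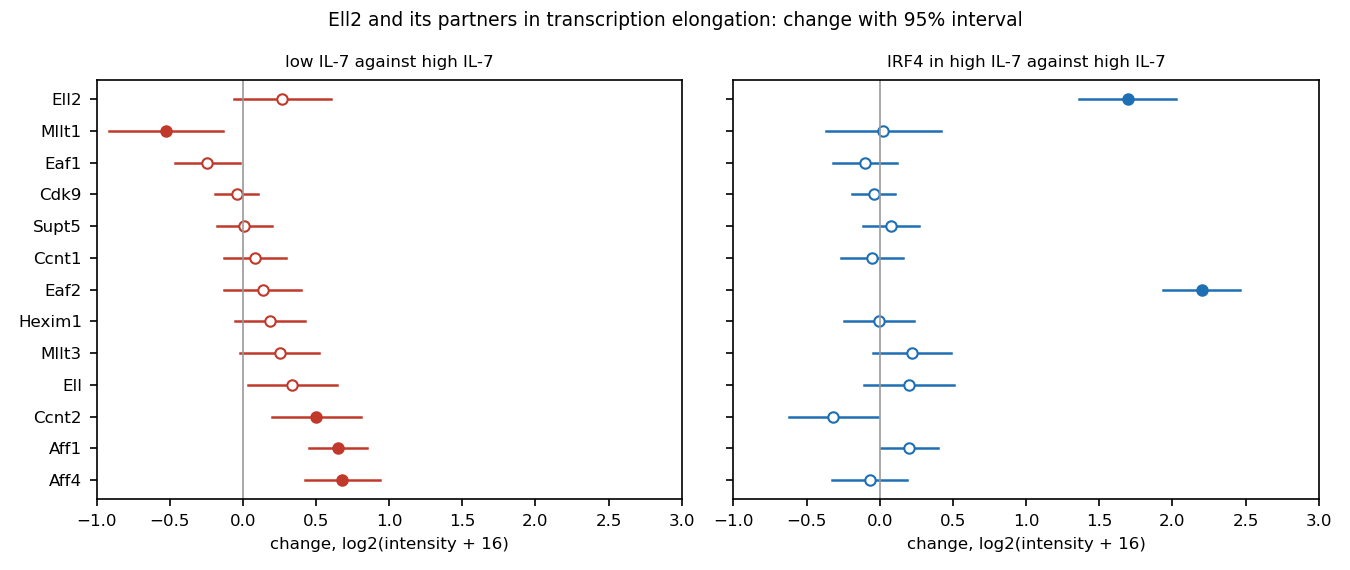
Log2 changes of Ell2 and the 12 tested elongation partners against high IL-7, with 95% intervals, in low IL-7 and with IRF4, filled where called. Ell2 (1.69) and Eaf2 (2.20) stand apart to the right with IRF4, and the remaining IRF4 points lie around 0.

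Sdc1 encodes syndecan-1, the surface proteoglycan (CD138) used to mark plasma cells, and it is also made by stromal and epithelial cells. None of its 4 tested probe sets was called in any comparison in the main limma fit, nor at an unadjusted p under 0.05. The brightest, of a type that may share probes with other sequences, read 1333, 1993 and 1659 in high IL-7, 1426, 1591 and 1751 in low IL-7 and 1662, 1236 and 1121 with IRF4. All groups overlapped. Its difference was -0.05 in low IL-7 (95% interval -0.43 to 0.33, adjusted p = 0.853) and -0.31 with IRF4 (-0.69 to 0.07, adjusted p = 0.439). Over the 4 probe sets the differences were -0.25 to -0.05 and -0.31 to -0.13. Probe set 1448158_at read 375 to 399 in high IL-7, above low IL-7 (352 to 368) and IRF4 (339 to 358) with no overlap. Array weights in limma called its low IL-7 difference (-0.14, adjusted p = 0.0344). They also called that of the brightest probe set between IRF4 and low IL-7 (-0.37, adjusted p = 0.0184). The summed stromal markers read 5004, 25294 and 14720 on the high IL-7 arrays and 17023, 2876 and 4238 on the IRF4 arrays, and the array with the highest sum was also the one with the highest value of this probe set in both groups. In low IL-7 the sums were 2389, 6261 and 5052, highest on array 2, while the probe set was highest on array 3. Probe sets 1415943_at and 1415944_at were highest on high IL-7 array 1 (1673 and 319), which had the lowest stromal sum of that group. The part of stromal RNA in these values was not tested. Of 8 tested syndecan and heparan sulfate genes, Sdc4 (0.82) and the syndecan-binding gene Sdcbp (0.56) rose in low IL-7 and Ext2 fell (-0.25), a call lost without any of 6 single arrays (adjusted p up to 0.159). The list's median was 0.05 there, and its 2 rises and 1 fall stand against 17.6% and 19.4% of all genes. With IRF4, 0 rose and 0 fell by limma (median -0.02), against 1.91% and 0.935% of all genes. At an unadjusted p under 0.05, 1 was higher and 0 lower.

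Other genes of the plasma cell list did not move as a block. Of 8 such genes with a test, low IL-7 raised 3 and lowered 1 (median 0.11), against 17.6% and 19.4% of all genes. With IRF4, 2 rose and 0 fell by limma (median 0.13), against 1.91% and 0.935%, with 3 higher and 1 lower at an unadjusted p under 0.05. Slamf7, a surface receptor of plasma cells, read 747 to 965 in high IL-7, 1961 to 2235 in low IL-7 and 970 to 1113 with IRF4, a low IL-7 rise of 1.33 (adjusted p = 9.05e-06). Txndc5, a disulfide isomerase, fell by 1.39 in low IL-7. Zbtb20 (0.37) and Derl3 (0.34) rose there, and each call was lost without any of several single arrays (adjusted p up to 0.102 and 0.0893). Tnfrsf13b, the receptor TACI, read 1710 to 2082, 1773 to 2080 and 3150 to 3468, a rise with IRF4 of 0.83 (adjusted p = 0.00104), and Eaf2, which this list also holds, was the other gene that rose. Eaf2 passed the filter only through its IRF4 arrays and is also counted among the ELL2 partners, so its place among the 2 is a description only. Mzb1, a chaperone of antibody assembly, differed by -0.29 between IRF4 and low IL-7 (adjusted p = 0.00102).

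Bach2, a repressor that holds back Prdm1, rose in both conditions. Its brightest probe set read 1610, 1523 and 1731 in high IL-7, 5128, 5740 and 5387 in low IL-7 and 3591, 3195 and 3171 with IRF4. The 3 groups did not overlap, with IRF4 between. The log2 means were 10.68 ± 0.09, 12.41 ± 0.08 and 11.70 ± 0.10 (SD, n = 3 each). Low IL-7 raised Bach2 by 1.73 ± 0.08 (SE), 3.32-fold (adjusted p = 4.97e-07), and IRF4 by 1.03 ± 0.08, 2.04-fold (adjusted p = 7.68e-05). The IRF4 level was 1.63-fold below that of low IL-7 (adjusted p = 7.35e-05). Probe set 1437667_a_at gave 1.92 and 1.08. The dimmest, 1445460_at, gave 0.36 and 0.33, neither called (adjusted p = 0.0727 and 0.319). Blocked on replicate number, a pairing that is uncertain here, its low IL-7 difference was called (adjusted p = 0.0222), and likewise without low IL-7 array 1 (0.0131). Both Prdm1 and Bach2 were at their highest on the low IL-7 arrays.

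Bcl6, the repressor that defines germinal centre B cells, rose in low IL-7. Its tested probe set read 285, 426 and 333 in high IL-7, 1287, 1123 and 1264 in low IL-7 and 339, 349 and 226 with IRF4. The low IL-7 arrays stood apart, and the high IL-7 and IRF4 arrays overlapped. The rise was 1.78 ± 0.18 (SE), 3.45-fold (adjusted p = 2.53e-05). With IRF4 the difference from high IL-7 was -0.19 (95% interval -0.58 to 0.20, adjusted p = 0.681), and the level was 3.93-fold below low IL-7 (adjusted p = 1.7e-05). The Bcl6 probe set below the filter read 71.6, 65.3 and 57.4, then 116, 114 and 109, then 64.9, 56.8 and 68.2, so it too was highest in low IL-7. Low IL-7 raised 2 and lowered 0 of the 8 other germinal centre genes by limma (2 higher and 1 lower at an unadjusted p under 0.05, median 0.03), where 17.6% and 19.4% of all genes did so, which puts the rises near the share of all genes. IRF4 raised 2 and lowered 0 (3 and 0 unadjusted, median 0.04), against 1.91% and 0.935% of all genes. Neil1, a DNA glycosylase, read 348 to 430, 1558 to 1960 and 443 to 575, a low IL-7 rise of 2.12 (adjusted p = 1.46e-06). Klhl6, a ubiquitin ligase adaptor, rose by 1.50 in low IL-7 and 0.94 with IRF4. Lmo2, a transcriptional adaptor, read 201 to 316, 186 to 208 and 652 to 811, a rise with IRF4 of 1.45 (adjusted p = 0.000368). Its low IL-7 difference of -0.34 was not called (adjusted p = 0.0889), but was with the replicate block (0.0337) and without high IL-7 array 3 (0.0147).

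Among 11 tested partners and corepressors of BCL6 and BACH2, Bach1 rose by 0.49 and Mafg, a small Maf partner, fell by 0.97 in low IL-7. The Bach1 call was lost without any of 4 single arrays (adjusted p up to 0.0898). Mta3, a BCL6 corepressor subunit, differed by -0.38 (adjusted p = 0.0537), called with the replicate block (0.00848). The list's median was -0.07, and 1 of 11 rose and 1 fell, against 17.6% and 19.4% of all genes. With IRF4, 0 of 11 rose and 0 fell by limma (median 0.06), against 1.91% and 0.935% of all genes. At an unadjusted p under 0.05, 1 was higher and 1 lower. Of 6 tested genes that BLIMP-1 is known to repress, other than Bcl6 and Bach2, Spib rose (0.93) and Myc fell (-2.66) in low IL-7, the condition in which Prdm1 was high, with a list median of 0.11; 1 of 6 in each direction is near the share of all genes. With IRF4, where the median was 0.21, Spib, an ETS factor, rose by 1.51 (1999 to 2643 in high IL-7, 5788 to 7281 with IRF4), and Cd22, a B cell receptor inhibitor, by 0.64, a call lost without IRF4 array 2 (adjusted p = 0.0598). That is 2 of 6 risen and 0 fallen by limma, against 1.91% and 0.935% of all genes, with 3 higher and 2 lower at an unadjusted p under 0.05. Between IRF4 and low IL-7, 4 of the 6 were higher with IRF4 and 1 lower, against 18.6% and 17.7% of all genes, with a median of 0.52. With Bcl6 and Bach2 included, both lower with IRF4, 4 of 8 were higher and 3 lower, with a median of 0.02. Pax5, the B cell identity factor, differed by 0.41 in low IL-7 (95% interval 0.0015 to 0.83, adjusted p = 0.11), called without high IL-7 array 1 (0.0028), and by -0.02 with IRF4 (-0.43 to 0.39).

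Bcl11a, a zinc finger factor needed for early B cell development, fell in low IL-7 and was highest with IRF4. Its brightest probe set read 1590, 1770 and 1564 in high IL-7, 944, 912 and 877 in low IL-7 and 2206, 2589 and 2907 with IRF4. The 3 groups did not overlap. Low IL-7 lowered it by 1.79-fold (log2 change -0.84 ± 0.11 SE, adjusted p = 0.000145). IRF4 raised it by 0.63 ± 0.11, 1.55-fold (adjusted p = 0.0117), and the IRF4 level was 2.77-fold above low IL-7 (adjusted p = 5.26e-06). The IRF4 call was lost without IRF4 array 2 (0.0546), with the 2 groups fitted alone (0.0503), and without both arrays of low 18S signal (0.0645).

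The 6 tested Bcl11a probe sets did not read alike. In low IL-7, 4 of 6 fell, by 0.84 to 1.32 on the log2 scale, while 1447335_x_at and 1447334_at differed by 0.01 (95% interval -0.18 to 0.20) and -0.15 (-0.36 to 0.06). With IRF4 all 6 differences were above 0 (0.23 to 0.72) and 2 were called. The call of 1456632_at (adjusted p = 0.0424) was lost without any of 7 single arrays (up to 0.132). Between IRF4 and low IL-7, 6 of 6 were higher with IRF4, by 0.25 to 1.81. The smallest, 1447335_x_at (adjusted p = 0.0418), lost its call under 12 alternatives, among them the replicate block (0.0540) and the removal of any of 7 single arrays (up to 0.147). Relative to the mean of its high IL-7 arrays, 1419406_a_at read 0.357 to 0.417 in low IL-7, whereas 1447335_x_at read 0.960 to 1.04. The arrays do not say which transcripts these probe sets measure. The probe set below the filter read 42 to 61.

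**Figure D5:**
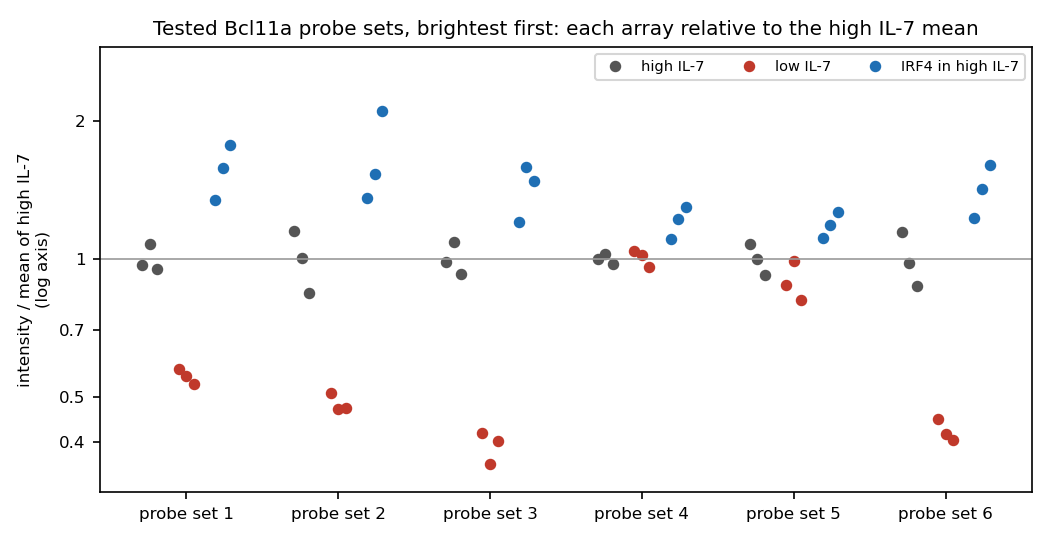
Intensity of each of the 6 tested Bcl11a probe sets on every array, divided by the mean of its high IL-7 arrays (log axis). Low IL-7 points of 4 probe sets lie at 0.357 to 0.575, those of 1447335_x_at and 1447334_at at 0.814 to 1.04, and all IRF4 points lie above 1.

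Mef2c, a MADS box factor that relays antigen receptor and p38 signals in B cells, rose in both conditions on all 5 of its probe sets. The brightest read 1330, 1358 and 1247 in high IL-7, 2620, 2276 and 2567 in low IL-7 and 2599, 2461 and 2834 with IRF4. Both other groups stood above high IL-7 and overlapped each other. The rise was 0.91 ± 0.09 (SE) in low IL-7, 1.88-fold (adjusted p = 2.06e-05), and 0.99 ± 0.09 with IRF4, 1.99-fold (adjusted p = 0.000162). Over the 5 probe sets the rises were 0.55 to 0.91 (adjusted p at most 0.00214) and 0.69 to 0.99 (at most 0.00675). The direct difference of IRF4 from low IL-7 on the brightest was 0.08 (95% interval -0.11 to 0.27, adjusted p = 0.506), and over all 5 it was -0.01 to 0.14 with none called. The 5 probe sets share 1 gene and are not replicates. With IRF4 and high IL-7 fitted alone under a replicate block, 2 of the 5 IRF4 calls were lost (adjusted p = 0.0583 and 0.0944).

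Among the 10 tested MEF2 and BCL11 relatives and deacetylases that bind MEF2 (with kinases that act on it), 3 rose and 0 fell in low IL-7 (3 and 0 also at an unadjusted p under 0.05), against 17.6% and 19.4% of all genes: Mef2d by 0.72, Hdac5 by 1.25 and Hdac9 by 1.10. With IRF4, Mef2d rose by 0.66 and Hdac9 by 0.55, and 0 of 10 fell, also at an unadjusted p under 0.05, against 1.91% and 0.935% of all genes. The medians were 0.17 and 0.14. The Mef2d call was lost without IRF4 array 2 (adjusted p = 0.0506), and the Hdac9 call without any of 8 single arrays (0.0573 to 0.157). Mef2a differed by 0.22 in low IL-7 (95% interval -0.04 to 0.47), and Bcl11b, the T cell relative of Bcl11a, by 0.13 (-0.08 to 0.34).

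Pou2af1, the B cell coactivator OCA-B, had a small rise in both conditions at a high intensity. Its probe set read 8080, 8296 and 8175 in high IL-7, 9913, 10581 and 10577 in low IL-7 and 9570, 9117 and 9832 with IRF4. The 3 groups did not overlap. The rise was 0.34 ± 0.04 (SE) in low IL-7, 1.26-fold (adjusted p = 0.000145), and 0.22 ± 0.04 with IRF4, 1.16-fold (adjusted p = 0.0281). The IRF4 call was lost without any of 7 single arrays (adjusted p 0.0502 to 0.0919). The difference of IRF4 from low IL-7, -0.12 (adjusted p = 0.0452), was lost under most alternatives.

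Pou2f2, the octamer factor OCT2, which POU2AF1 binds, was higher with IRF4 than in low IL-7 on 2 of its 3 probe sets. Its brightest of 3 probe sets read 281, 280 and 256 in high IL-7, 204, 265 and 250 in low IL-7 and 330, 343 and 479 with IRF4. The IRF4 arrays stood above all others, and the high and low IL-7 arrays overlapped. Its difference was 0.46 with IRF4 against high IL-7 (95% interval 0.14 to 0.77, adjusted p = 0.139) and 0.63 against low IL-7 (adjusted p = 0.00521). Of the other probe sets, 1427713_x_at rose with IRF4 by 0.68 (adjusted p = 0.0307), a call lost without any of several single arrays (up to 0.0955) or without both arrays of low 18S signal (0.0531), and 1427725_a_at differed by 0.49 (adjusted p = 0.0759), called without IRF4 array 1 (0.0323). IRF4 array 3 was the highest on all 3 probe sets, and it is 1 of the arrays of low 18S signal. The part of that array's 18S signal in these values was not tested. Against low IL-7, 1427725_a_at differed by 0.30 (adjusted p = 0.0930) with overlapping groups. The call of 1427713_x_at there (0.41, adjusted p = 0.0383) was lost without any single low IL-7 array or IRF4 array 3 (0.0685 to 0.115) and with the replicate block (0.0600). In low IL-7 the differences were -0.18 to 0.26, none called, though 1427713_x_at was without both arrays of low 18S signal (0.0417). Of 2 tested genes listed with the octamer factors, Pou2f3 and Siah1a, 0 rose and 0 fell against high IL-7 in either comparison by limma. Of all genes, 17.6% and 19.4% did so in low IL-7, and 1.91% and 0.935% with IRF4. At an unadjusted p under 0.05, 1 was higher in low IL-7, Siah1a (0.29, adjusted p = 0.0759), which was called there without IRF4 array 3 (0.0405).

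For each gene, the genes with the most similar intensity over the 9 arrays were listed by Pearson's r between brightest probe sets. These values follow the 3 groups and are a description. Prdm1 ran closest to Rbm24 (r = 0.998), Dtx1 (0.9945) and Itga4 (0.994), and Bcl6 to Akap13 (0.997), Elk4 and Zfp36l1 (0.993 each). Bach2 ran closest to Cd93 (0.987), which was also the nearest to Pou2af1 (0.973). Xbp1 ran closest to Knop1 (0.994), Nus1 (0.993) and Cish (0.991), and Bcl11a to Prkag2 (0.989), Ufm1 (0.981) and Ms4a1 (0.979). Mef2c ran closest to Rb1 (0.980), and Ell2 to H3c7 (0.981), with Eaf2 the third nearest (0.968). Pou2f2 ran closest to Ciita (0.9765) and Sdc1 to Smarcd3 (0.965).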

How the data were processed

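Total RNA of 9 samples of mouse pre-B cells was hybridised to Affymetrix arrays, per the labels' protocols. The authors deposited these as 1 table of probe set intensity on a linear scale; the summarisation, scaling and software are not given in the sources used here. Gene symbols came from the platform annotation: 34945 probe sets had 1 symbol, 932 several and 9160 none, besides 64 control probe sets. No coordinates of probe sets were used.

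Tests used log2(intensity + 16). Control probe sets and those with a mean below the 40th percentile were left out, and 27024 were tested with limma 3.58.1 in R 4.3.3 (lmFit over all 9 arrays, eBayes with a trend, two-sided), with Benjamini-Hochberg adjustment within each comparison. The procedure was tested on simulated data. Alternatives changed the pseudocount, filter, trend, scaling, weights, blocking, probe sets per gene and arrays used. The brightest tested probe set stood for its gene. The 10 genes, the 9 pathway lists and the 8 marker lists were chosen with earlier results of these data known, and named genes are the 10, called list members, list members whose values bear on a statement, and the nearest genes by correlation. A few uncalled list genes were chosen after their values were seen. Some listed genes were not analysed here. Plots were made in Python 3.11.15 with matplotlib 3.10.9.

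Replicates of a group were numbered by the sample titles. Deviations from the group means correlated at 0.535, 0.353 and 0.190 for same-numbered high and low IL-7 arrays. For differently numbered ones they ran from -0.514 to 0.359, the highest between high IL-7 array 2 and low IL-7 array 3. For the IRF4 arrays with same-numbered others they ran from -0.354 to 0.0106. These values do not settle whether the numbers pair the arrays, so the replicate block is given only as an alternative. The labels name no batch, and 3 arrays per group limit the precision.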

Additional observations from a re-analysis of the deposited data

How the results depend on the processing

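Of 22 alternatives, 9 left out 1 array, and 2 were chosen after seeing the data (both arrays of low 18S signal left out, and the replicate block fitted to the 2 groups compared). Over the 84 probe set changes of the 10 genes, 1681 alternative values kept their side of the threshold, 70 lost a call and 30 gained 1. The 1681 include uncalled values that changed sign by less than the SE of the main fit. Among them are values of Sdc1 1437279_x_at in low IL-7 (-0.20 to 0.09 over the alternatives). Of the called changes, 0 reversed, and 1 uncalled change, Bcl6 with IRF4 without IRF4 array 3, moved to 0.00138. Values below are for low IL-7, then IRF4, each against high IL-7, then IRF4 against low IL-7. Called probe sets of all tested numbered 9827, 747 and 10134. Leaving out single arrays gave 7479 to 10442, 353 (without IRF4 array 2) to 1047 (without IRF4 array 1) and 7612 to 10707, with 10 to 11, 9 to 14 and 10 to 13 probe sets of the 10 genes rising and 7 to 7, 0 to 3 and 4 to 5 falling. With 1 probe set per gene the counts were 4801, 365 and 4666, with 5, 5 and 4 rising and 2 falling in low IL-7. Array weights gave 15309, 3247 and 15220, with 3 falling with IRF4. With IRF4, the 2 groups alone gave 321 calls, leaving out both arrays of low 18S signal 414, and the block on the 2 groups 211 with 6 rising. The replicate block over all arrays gave 10122, 876 and 10448, with 11, 10 and 10 rising and 7, 1 and 4 falling; it changed, in low IL-7, the call of 1 Bach2 probe set among those of the 10 genes. A filter at the 60th percentile gave 1 falling with IRF4. The cause of these changes was not tested. Signal limits Prdm1, Eaf2 and the 4 probe sets below the filter, which were not placed against background here.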
